A study of Homo sapiens with 12 samples.

Results

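The replication-dependent histone genes were followed across 12 RNA sequencing libraries of 769-P cells, an established human clear cell renal carcinoma line. Members were chosen by symbol (H1-1 to H1-6, and the numbered genes of the H2AC, H2BC, H3C and H4C families) and by level, as a summed count of 60 or more over all 12 libraries. Of 60617 gene IDs, 67 matched by symbol and 26 of these reached that sum. The members are 2 of 6 linker histone H1 genes, 5 of 15 H2A, 11 of 18 H2B, 3 of 13 H3 and 5 of 15 H4 genes. The other 41 fell below the sum, and 17 of them had a count of 0 in every library. Just inside the limit were H3C13 with a summed count of 63, H2AC12 with 64 and H2BC6 with 87. Just outside it were H2AC16 and H4C12 with 42 each and H2BC17 with 36.

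The libraries form 4 groups of 3, all of the same cell line grown in serum-containing medium: siDRAIC with siDRAIC-NC, and sihnRNPA2B1 with sihnRNPA2B1-NC. DRAIC is a long non-coding RNA, and hnRNPA2B1 is a nuclear RNA-binding protein. Each NC group is taken as the control of the small interfering RNA (siRNA) it is named with. The sources used here do not give what NC stands for, the siRNA sequences, the dose or the time after treatment. The labels do not say that replicates were separate cultures, so each p-value reflects how far these 3 samples a group spread, and that spread could be technical. In bulk RNA, fewer cells making a transcript and less of it per cell cannot be told apart.

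The targeted genes were examined first. HNRNPA2B1 averaged 291 ± 16.7 CPM (counts scaled to a fixed library total; SD, n = 3) in sihnRNPA2B1 and 420 ± 21.01 CPM in sihnRNPA2B1-NC, and fell by 0.56 on the log2 scale (adjusted p = 2.16e-09, edgeR's quasi-likelihood test). DRAIC had counts of 3, 6 and 0 in the libraries labelled siDRAIC and 2, 1 and 2 in siDRAIC-NC, too few to check those labels. Library totals ran from 30798303 to 42760528 counts, and 3 counts in a library correspond to 0.0702 to 0.0974 CPM. The kidney lineage factor PAX8 was present at 437 to 500 CPM as group means, and the intermediate filament gene VIM at 880 to 1679 CPM. CA9, a gene typical of clear cell renal carcinoma, was at or near 0, at 0 to 0.0181 CPM.

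Histone proteins package DNA into nucleosomes: H2A, H2B, H3 and H4 form the core, and H1 binds the linker DNA between cores. The replication-dependent genes supply them while DNA is copied in S phase. Most of their messenger RNAs carry no poly(A) tail. They end instead just after a conserved stem-loop that is bound by the protein SLBP, and they are degraded when DNA synthesis stops. Some of the genes can also make longer, polyadenylated transcripts, which have been described in differentiated and non-dividing cells. A library made by poly(A) selection therefore sees such transcripts better than the stem-loop form. The sources used here name a TruSeq kit but do not say whether RNA was selected by poly(A) tail or depleted of ribosomal RNA.

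Of 25 RNAs known to lack a poly(A) tail that were looked up beside the histones (small nuclear, small nucleolar and other short RNAs), 14 had a count of 0 in every library. Their summed level was 4.56 to 7.95 CPM in siDRAIC and 6.96 to 8.48 CPM in siDRAIC-NC, and 2.57 to 2.77 CPM in sihnRNPA2B1 and 3.64 to 4.25 CPM in sihnRNPA2B1-NC. Only 3 of them passed the low-count filter: RN7SL1, the RNA of the signal recognition particle, and the small nucleolar RNAs SNORD17 and SNORA73B. RN7SL1 fell by 1.13 on the log2 scale in sihnRNPA2B1 (adjusted p = 0.00694, edgeR), where 15.4% of genes were called lower. It had 0.998, 0.762 and 0.727 CPM there, against 0.974, 1.68 and 2.61 CPM in sihnRNPA2B1-NC, so the groups overlapped. The other tests of these 3 RNAs against their own controls gave adjusted p above 0.05. SNORD17 averaged 3.43 ± 1.10 CPM in siDRAIC and 4.62 ± 0.592 CPM in siDRAIC-NC, and 0.982 ± 0.204 CPM in sihnRNPA2B1 and 1.23 ± 0.291 CPM in sihnRNPA2B1-NC.

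The stem-loop is the signature of the family, so the transcripts of GENCODE 29 were searched for it. The known stem-loop letters, with 3 positions left free, were looked for on the sense strand after the stop codon, and 17 of the 25 members in that annotation held it, 23 to 56 bases past the stop. The 17 matches had 5 spellings, shown here once each with 5 flanking bases (the stem-loop in capitals, 5′ to 3′, as DNA, from the 3′ UTR).
H2AC6: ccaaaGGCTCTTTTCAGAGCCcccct
H2AC11: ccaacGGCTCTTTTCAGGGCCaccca
H2BC5: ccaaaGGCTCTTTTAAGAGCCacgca
H4C8: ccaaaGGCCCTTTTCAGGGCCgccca
H4C9: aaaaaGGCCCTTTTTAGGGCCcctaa

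The spelling of H2AC6 was shared by 8 members, all H2A or H2B genes (H2AC6, H2AC8, H2BC6, H2BC8, H2BC9, H2BC15, H2BC18 and H2BC21). That of H2BC5 was shared with H2BC4 and H2BC7, and H2AC11 had its spelling alone. The H4 genes used their own 2 forms, one in H4C5, H4C8 and H4C16 and the other in H4C9 and H4C14. In all 17 genes the annotated exons ran on past the stem-loop, by 51 bases in H2AC8 up to 4131 bases in H2BC15, with 1128 bases in H2AC6. The other 8 members gave no match, which says only that these letters are not in their annotated transcripts. For H1-2, H2AC12, H2AC20, H2BC12 and H3C13 the annotated exons span 642, 387, 390, 381 and 411 bases, the length of the coding sequence alone. A stem-loop past the stop could not be found in these.

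Members with and without the match had overlapping ranges of change. In siDRAIC the 13 tested members with a match had a median log2 fold change of 0.94 (lowest -1.12, highest 1.94) and the 6 without one a median of 1.13 (lowest -0.90, highest 1.32). In sihnRNPA2B1 the 15 with a match had a median of 0.40 and the 5 without one a median of 0.53. The 13 include H2BC9, which passed the low-count filter only through the siDRAIC libraries. These are descriptions of the members tested, with no test between the sets. Since some members without a match have no annotated 3′ UTR, the sets do not separate genes with and without a stem-loop.

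The members lie in gene clusters: 19 on chromosome 6, 5 on chromosome 1 and H4C16 on chromosome 12, while H3C2 has no position in the annotation used. H2AC6 spans chr6:26124145-26139116 on the plus strand of GRCh38 (GENCODE 29) and H2BC5 spans chr6:26158146-26171349 on the plus strand. Both were higher in the siRNA libraries of each experiment, as described below, so their promoters are shown, from 250 bases before to 50 bases after the RefSeq start (GRCh38.p14, plus strand, for H2BC5 the first of 2 listed starts 1 base apart; chr6:26123922-26124221 for H2AC6 and chr6:26157871-26158170 for H2BC5). Capitals mark each match, on either strand, to the TATA box letters TATAAA, the CCAAT box letters CCAAT and the octamer ATGCAAAT.
H2AC6: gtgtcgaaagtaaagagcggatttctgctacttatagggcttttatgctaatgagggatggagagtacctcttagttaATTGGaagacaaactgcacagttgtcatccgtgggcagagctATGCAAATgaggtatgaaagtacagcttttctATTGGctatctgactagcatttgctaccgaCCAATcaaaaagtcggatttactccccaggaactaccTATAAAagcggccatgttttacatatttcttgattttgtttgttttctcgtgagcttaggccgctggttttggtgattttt
H2BC5: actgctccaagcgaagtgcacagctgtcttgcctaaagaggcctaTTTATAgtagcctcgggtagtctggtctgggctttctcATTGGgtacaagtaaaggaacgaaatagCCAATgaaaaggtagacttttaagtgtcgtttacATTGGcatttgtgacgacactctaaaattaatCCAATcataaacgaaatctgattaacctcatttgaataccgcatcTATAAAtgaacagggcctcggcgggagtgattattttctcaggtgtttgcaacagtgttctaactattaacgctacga

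H2AC6 held 1 octamer, 3 CCAAT letters and 1 TATA box, and H2BC5 held 4 CCAAT letters and 2 TATA matches but no octamer. A RefSeq promoter was found for 25 members. The octamer was present in 13 of these 25, against 1.77% of 35116 promoters, and it was confined to the H2A genes (4 of 4) and H2B genes (9 of 11) among the members. The windows of all 4 H2A genes overlap that of a facing H2B gene (H2BC4, H2BC8, H2BC11 or H2BC21). Each H2A octamer is the same site as that of its H2B neighbour, read on the other strand, so the 13 are not separate sites. TATAAA was present in 16 of 25 members, against 11.5% of promoters, and CCAAT in 21 of 25, against 34.6%. Matches in the overlapping stretches were counted for both members here too. A match is a description of the letters and not of a bound factor.

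The level of the family rested on few genes. Per kilobase of annotated exon, H2BC12 was highest over the 12 libraries, at a mean of 31.1 CPM per kb, followed by H1-2 at 12.9, H2AC6 at 11.9 and H2BC5 at 4.13. The remaining members with an annotated length lay between 0.0751 and 1.80 CPM per kb. The exon length is only 381 bases for H2BC12 and 642 for H1-2, against 1668 for H2AC6, so levels per length depend on how much of each gene's ends is annotated. H2AC6 made up 16.5 ± 3.37% of the counts of the family in siDRAIC and 9.33 ± 2.60% in siDRAIC-NC, and 41.3 ± 1.59% in sihnRNPA2B1 and 32.9 ± 1.06% in sihnRNPA2B1-NC (SD, n = 3 each).

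Some levels are uncertain because reads may fit more than 1 gene. Of the 50-base windows of the annotated exons, 97.5% in H4C14, 80.4% in H3C13 and 74.1% in H2BC12 also occur in another gene. The share was 30.5% in H2AC20 and H2BC6 and 26.9% in H2BC18. Exons of H2BC15, H2BC18, H2BC6 and H4C14 overlap another gene, and the sources used here do not say whether counting used strand. Of the member values between 1 and 40 counts, 81.6% of 174 were even, against 59.3% of such values over all genes. The sources used here do not say how read pairs were counted.

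The summed level of the 26 genes was higher with each siRNA. It was 64.0 ± 9.11 CPM in siDRAIC and 29.1 ± 1.88 CPM in siDRAIC-NC, a ratio of 2.20. It was 107 ± 1.94 CPM in sihnRNPA2B1 and 65.7 ± 1.94 CPM in sihnRNPA2B1-NC, a ratio of 1.63. The 3 siRNA libraries lay above the 3 control libraries in both experiments. Without H2AC6 the ratios were 2.03 and 1.43. These sums carry no p-value, since the genes were chosen with results of these data known.

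**Figure D1:**
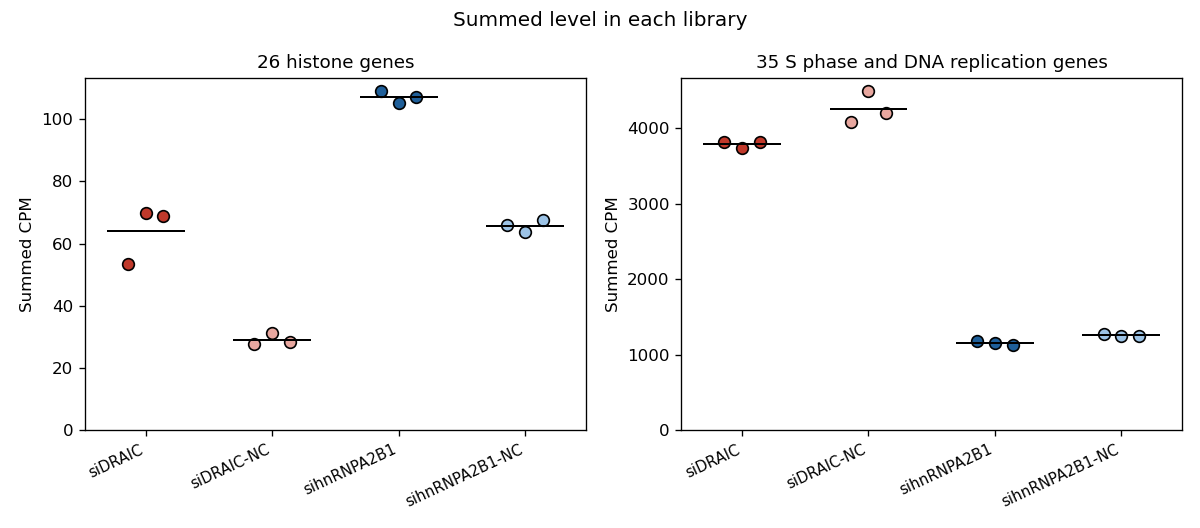
Summed CPM in each library (points) with the group mean (bar) for the 26 histone genes on the left and for 35 genes of S phase and DNA replication on the right, both axes starting at 0. Histone sums averaged 64.0 CPM in siDRAIC and 29.1 in siDRAIC-NC, and 107 in sihnRNPA2B1 and 65.7 in sihnRNPA2B1-NC; the replication genes averaged 3791, 4259, 1157 and 1259 CPM in the same groups.

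In siDRAIC, 2 of the 19 members that passed the low-count filter rose and 0 fell at an adjusted p below 0.05 (edgeR), where 0.713% of 15986 genes were called in either direction and 0.582% of the 15986 were called higher. The called genes were H2AC6 and H2BC5. At an unadjusted p below 0.05, 12 members were higher and 0 lower. The share of all genes at that threshold is not given here, so this count is not read as a result. The median log2 fold change of the 19 was 0.98, against -0.00 over all genes tested, and 16 of 19 were above 0, against 49.5% of all genes. CPM was higher in every siDRAIC library than in every siDRAIC-NC library for 14 of the 19, against 9.75% of all genes. It was lower in every one for 2 (H1-4 and H2BC18), against 5.86%. The median, the 16 and the 14 include H2BC9, which passed the low-count filter only through the siDRAIC libraries. Same-numbered libraries of this experiment deviated together, a pairing read from these same counts and not from the labels. With the replicate number as a block edgeR called 9 members higher, where 5.2% of genes were called higher, and 0 lower. DESeq2 called 5 higher, against 1.86% of genes, and edgeR without a low-count filter 5, against 1.15%. One fit over all 12 libraries called 7, against 2.45%. RLE factors, limma-voom and a filter of 1 CPM in 3 libraries left 1 call each, H2AC6, against 0.432%, 0.394% and 0.4% of genes.

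In sihnRNPA2B1, 8 of 21 tested members rose and 0 fell (adjusted p below 0.05, edgeR), where 30.4% of 15710 genes were called in either direction and 15.1% of the 15710 were called higher. The 8 were H1-2, H2AC6, H2AC11, H2BC5, H2BC12, H2BC21, H3C6 and H4C8. The median log2 fold change was 0.40, against 0.01 over all genes, and 15 of 21 were above 0, against 51.1% of all genes. CPM was higher in every sihnRNPA2B1 library than in every sihnRNPA2B1-NC library for 9 of the 21, against 23.7% of all genes, and lower for 1 (H3C2), against 18.3%. A single fit over all 12 libraries, in which the spread of the DRAIC experiment enters, kept 2 of the 8 calls, H2AC6 and H3C6, where 1.09% of genes were called higher. Without a low-count filter, where 7.41% of genes were called higher and 7.5% lower, edgeR also called 1 member lower, H2AC20.

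Of the 17 members tested in both experiments, 12 were above 0 in both, 0 were below 0 in both and 5 had opposite signs. The change was larger in siDRAIC for 13 of the 17. The filter left 3 members (H2AC12, H2BC6 and H3C13) untested in both experiments.

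**Figure D2:**
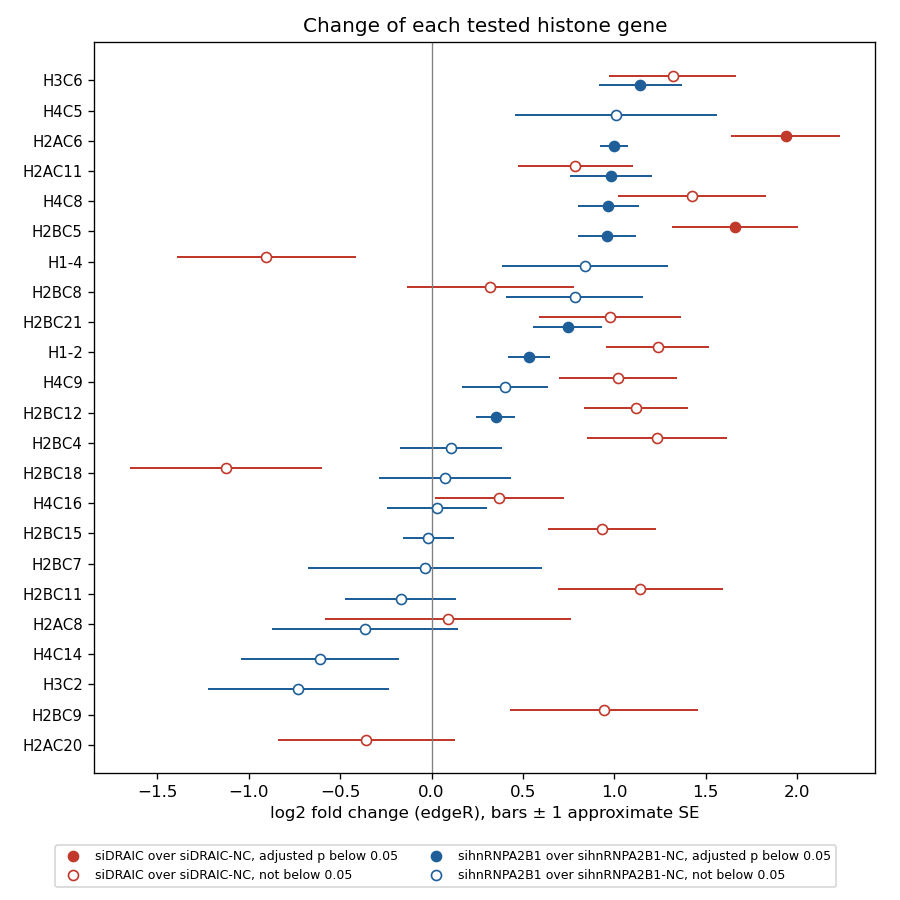
Log2 fold change (points) with its approximate standard error (bars) for each tested histone gene, siDRAIC over siDRAIC-NC in red and sihnRNPA2B1 over sihnRNPA2B1-NC in blue, filled where the adjusted p was below 0.05. Most points lie right of 0, with H2AC6 and H2BC5 filled in both colours, and H1-4, H2BC18 and H2AC20 lie left of 0 in red.

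Among the linker histones, H1-2 was the abundant gene. It had 7.92, 12.7 and 7.92 CPM in siDRAIC, against 3.72, 4.76 and 3.50 CPM in siDRAIC-NC. It had 10.6, 11.9 and 12.5 CPM in sihnRNPA2B1, against 7.34, 7.37 and 8.95 CPM in sihnRNPA2B1-NC. All siRNA libraries lay above their controls. The log2 fold change was 0.53 in sihnRNPA2B1 (SE 0.12, adjusted p = 0.000743, edgeR). In siDRAIC it was 1.24 (SE 0.28, adjusted p = 0.0723, edgeR), and 1.21 with the replicate block (adjusted p = 4.89e-06, edgeR). Without siDRAIC-NC replicate 1 it was called as well, at 1.15 (adjusted p = 0.0421, edgeR).

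H1-4, another linker histone, went the other way in siDRAIC. It averaged 0.273 ± 0.0568 CPM there and 0.505 ± 0.102 CPM in siDRAIC-NC, with no overlap, at a log2 fold change of -0.90 (SE 0.49, adjusted p = 0.540, edgeR). In sihnRNPA2B1 it averaged 0.722 ± 0.377 CPM and in sihnRNPA2B1-NC 0.386 ± 0.124 CPM, and the groups overlapped.

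Among the H2A genes, H2AC6 had the largest change in siDRAIC. It had 9.36, 13.4 and 8.75 CPM in siDRAIC, against 3.15, 3.21 and 1.80 CPM in siDRAIC-NC, a log2 fold change of 1.94 (SE 0.30, adjusted p = 0.0129, edgeR). It had 46.0, 41.5 and 45.1 CPM in sihnRNPA2B1, against 22.3, 21.1 and 21.4 CPM in sihnRNPA2B1-NC, a log2 fold change of 1.00 (SE 0.07, adjusted p = 2.20e-11, edgeR). The groups did not overlap in either experiment, and the control level of one experiment lay above the siRNA level of the other. The siDRAIC call was lost without siDRAIC replicate 2 or 3 or siDRAIC-NC replicate 2 or 3 (adjusted p = 0.0570 to 0.0830, edgeR, log2 fold change 1.68 to 2.08).

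H2AC11 had 1.99, 3.09 and 2.03 CPM in siDRAIC, against 1.42, 1.43 and 1.24 CPM in siDRAIC-NC. It had 3.08, 2.31 and 3.09 CPM in sihnRNPA2B1, against 1.36, 1.22 and 1.61 CPM in sihnRNPA2B1-NC. Both siRNA groups lay above their controls, and the control groups were at like levels, 1.36 ± 0.108 and 1.40 ± 0.199 CPM. The gene rose in sihnRNPA2B1, by a log2 fold change of 0.98 (SE 0.22, adjusted p = 0.00121, edgeR), and was at 0.79 in siDRAIC (SE 0.31, adjusted p = 0.375, edgeR).

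The other H2A genes were low. H2AC20, H2AC8 and H2AC12 had group means of 0.0606 to 0.567 CPM, and siRNA and control libraries overlapped for each in both experiments. H2AC20 fell below the filter in sihnRNPA2B1, where its counts were 4, 8 and 10, against 20, 37 and 4 in sihnRNPA2B1-NC. Without a filter its log2 fold change there was -1.56 (adjusted p = 0.0352, edgeR), and without sihnRNPA2B1-NC replicate 3 it was -2.06 (adjusted p = 0.00300, edgeR). The latter fit left out the control library with 4 counts, and H2AC20 then passed the filter only through the control libraries. That fall is bound up with the filter and is not read as a result.

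The H2B genes were the largest class, and H2BC5 was the H2B gene called with both siRNAs. It had 3.05, 3.53 and 3.61 CPM in siDRAIC, against 1.68, 0.877 and 0.670 CPM in siDRAIC-NC, a log2 fold change of 1.66 (SE 0.34, adjusted p = 0.0492, edgeR). It had 6.49, 7.04 and 6.24 CPM in sihnRNPA2B1, against 3.41, 2.59 and 3.98 CPM in sihnRNPA2B1-NC, a log2 fold change of 0.96 (SE 0.16, adjusted p = 2.65e-05, edgeR). Neither pair of groups overlapped. The siDRAIC call lay close to the threshold: leaving out any library other than siDRAIC-NC replicate 1 ended it (siDRAIC replicate 1, 2 or 3 or siDRAIC-NC replicate 2 or 3; adjusted p = 0.0579 to 0.263, edgeR). It was also lost with RLE scaling, limma-voom and the stricter filter (adjusted p = 0.0529 to 0.0620). It was kept with DESeq2 (adjusted p = 0.000891), and by edgeR without a filter (adjusted p = 0.000529), over all 12 libraries (adjusted p = 0.00364) and with the replicate block (adjusted p = 1.93e-06).

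H2BC12 had the highest CPM of the family in the DRAIC experiment. It had 12.1, 18.3 and 25.1 CPM in siDRAIC, against 6.44, 9.39 and 9.12 CPM in siDRAIC-NC. It had 12, 11.5 and 11.4 CPM in sihnRNPA2B1, against 8.86, 8.99 and 8.90 CPM in sihnRNPA2B1-NC. The siRNA libraries lay above the controls in both, with a wide spread in siDRAIC and a narrow one in sihnRNPA2B1. It rose in sihnRNPA2B1 by a log2 fold change of 0.35 (SE 0.11, adjusted p = 0.0121, edgeR), a call lost without sihnRNPA2B1 replicate 1 (adjusted p = 0.0508, edgeR). In siDRAIC it was at 1.12 (SE 0.28, adjusted p = 0.114, edgeR) and 1.09 with the replicate block (adjusted p = 2.30e-06, edgeR). Without siDRAIC replicate 1 it was called, at 1.36 (adjusted p = 0.0388, edgeR). Since 74.1% of its windows occur in another gene, its level is uncertain.

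H2BC21 had 1.77, 1.5 and 1.12 CPM in siDRAIC, against 1.11, 0.651 and 0.464 CPM in siDRAIC-NC. It had 4.17, 5.28 and 4.83 CPM in sihnRNPA2B1, against 2.86, 3.46 and 2.00 CPM in sihnRNPA2B1-NC. The siDRAIC groups did not overlap, though their nearest libraries almost touched. It rose in sihnRNPA2B1, by 0.74 (log2 fold change; SE 0.19, adjusted p = 0.00299, edgeR), and was at 0.98 in siDRAIC (SE 0.39, adjusted p = 0.378, edgeR).

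H2AC6, H2BC5, H2BC12 and H2BC21 were listed together as histone genes with known polyadenylated transcripts. In siDRAIC 2 of the 4 rose, where 0.582% of all genes were called higher, and in sihnRNPA2B1 4 of 4, where 15.1% were. The median log2 fold changes were 1.39 in siDRAIC and 0.85 in sihnRNPA2B1. Their summed level was 33.9 ± 6.62 CPM in siDRAIC and 12.9 ± 1.11 CPM in siDRAIC-NC, and 67.2 ± 1.71 CPM in sihnRNPA2B1 and 36.6 ± 0.719 CPM in sihnRNPA2B1-NC. This list was written with the results known, so it is no independent evidence.

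H2BC15, H2BC4 and H2BC11 were higher in siDRAIC without overlap but not in sihnRNPA2B1. H2BC15 had 2.99, 2.88 and 3.99 CPM in siDRAIC, against 1.79, 1.25 and 2.04 CPM in siDRAIC-NC, and averaged 5.32 ± 0.335 CPM in sihnRNPA2B1 and 5.27 ± 0.284 CPM in sihnRNPA2B1-NC. H2BC4 had 2.05, 1.33 and 1.87 CPM in siDRAIC, against 0.653, 1.05 and 0.464 CPM in siDRAIC-NC. H2BC11 had 1.47, 1.03 and 1.07 CPM in siDRAIC, against 0.596, 0.751 and 0.232 CPM in siDRAIC-NC.

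Their log2 fold changes in siDRAIC were 0.93, 1.23 and 1.14 (adjusted p = 0.220, 0.213 and 0.366, edgeR). With the replicate block H2BC15 and H2BC4 were called (adjusted p = 0.0156 and 0.0102, edgeR), and H2BC11 was not (adjusted p = 0.0517, edgeR). In sihnRNPA2B1 the 3 changes were -0.02, 0.11 and -0.17 with overlapping groups.

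The remaining H2B genes had group means of 0.0786 to 1.21 CPM. H2BC8 averaged 1.21 ± 0.583 CPM in sihnRNPA2B1 and 0.680 ± 0.259 CPM in sihnRNPA2B1-NC, a log2 fold change of 0.78 (adjusted p = 0.115, edgeR). It was called without sihnRNPA2B1 replicate 2 (adjusted p = 0.0291, edgeR) and without sihnRNPA2B1-NC replicate 3 (adjusted p = 0.0361, edgeR). H2BC18 was lower in every siDRAIC library, at 0.237 ± 0.0690 CPM, against 0.514 ± 0.185 CPM in siDRAIC-NC, a log2 fold change of -1.12 (adjusted p = 0.473, edgeR). H2BC9 was higher in every siDRAIC library, at 0.416 ± 0.0718 CPM, against 0.209 ± 0.0444 CPM in siDRAIC-NC (log2 fold change 0.94, adjusted p = 0.545, edgeR). It passed the low-count filter only through the siDRAIC libraries. That rise is bound up with the filter and is not read as a result. H2BC7 and H2BC6 overlapped between groups in both experiments.

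Among the core H3 genes, H3C6 carried most of the counts. It had 1.94, 1.96 and 1.44 CPM in siDRAIC, against 0.852, 0.751 and 0.515 CPM in siDRAIC-NC. It had 3.41, 3.15 and 3.27 CPM in sihnRNPA2B1, against 1.17, 2.01 and 1.11 CPM in sihnRNPA2B1-NC. No groups of an experiment overlapped. It had the largest change of the 8 called genes in sihnRNPA2B1, at 1.14 (log2 fold change; SE 0.23, adjusted p = 0.000283, edgeR). In siDRAIC it was at 1.32 (SE 0.35, adjusted p = 0.131, edgeR), and was called with the replicate block (adjusted p = 0.00585, edgeR).

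H3C2 had 0.235, 0.305 and 0.312 CPM in sihnRNPA2B1, against 0.325, 0.711 and 0.334 CPM in sihnRNPA2B1-NC, all siRNA libraries lower (log2 fold change -0.73, adjusted p = 0.283, edgeR). H3C13 had group means of 0.0681 to 0.214 CPM and was tested in neither experiment.

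Among the H4 genes, H4C8 had 1.22, 2.57 and 3.00 CPM in siDRAIC, against 0.596, 1.05 and 0.825 CPM in siDRAIC-NC. It had 4.84, 5.84 and 4.88 CPM in sihnRNPA2B1, against 2.60, 2.31 and 2.89 CPM in sihnRNPA2B1-NC. The siRNA libraries were all higher. It rose in sihnRNPA2B1 by 0.97 (log2 fold change; SE 0.17, adjusted p = 5.51e-05, edgeR). In siDRAIC it was at 1.42 (SE 0.40, adjusted p = 0.163, edgeR), and was called with the replicate block (adjusted p = 0.00138, edgeR).

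H4C9 had 2.66, 3.32 and 4.63 CPM in siDRAIC, against 1.56, 1.33 and 2.24 CPM in siDRAIC-NC, a log2 fold change of 1.02 (SE 0.32, adjusted p = 0.216, edgeR; 0.00609 with the replicate block). It averaged 2.34 ± 0.118 CPM in sihnRNPA2B1 and 1.74 ± 0.541 CPM in sihnRNPA2B1-NC, where the change of 0.40 did not pass (adjusted p = 0.207, edgeR). H4C16 lay at 1.17 ± 0.285 CPM in siDRAIC and 0.885 ± 0.0383 CPM in siDRAIC-NC, and at 1.44 ± 0.439 CPM in sihnRNPA2B1 and 1.38 ± 0.112 CPM in sihnRNPA2B1-NC. H4C14 had 0.0363 ± 0.0315 CPM in siDRAIC and 0.0867 ± 0.0259 CPM in siDRAIC-NC, which is near the level of 3 counts. H4C5 averaged 0.500 ± 0.227 CPM in sihnRNPA2B1 and 0.233 ± 0.195 CPM in sihnRNPA2B1-NC (log2 fold change 1.01, adjusted p = 0.173, edgeR), and was called without sihnRNPA2B1-NC replicate 2 (adjusted p = 0.0303, edgeR). The control libraries left there had 4 counts each, so H4C5 passed the filter only through the siRNA libraries. That call is not read as a result.

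**Figure D3:**
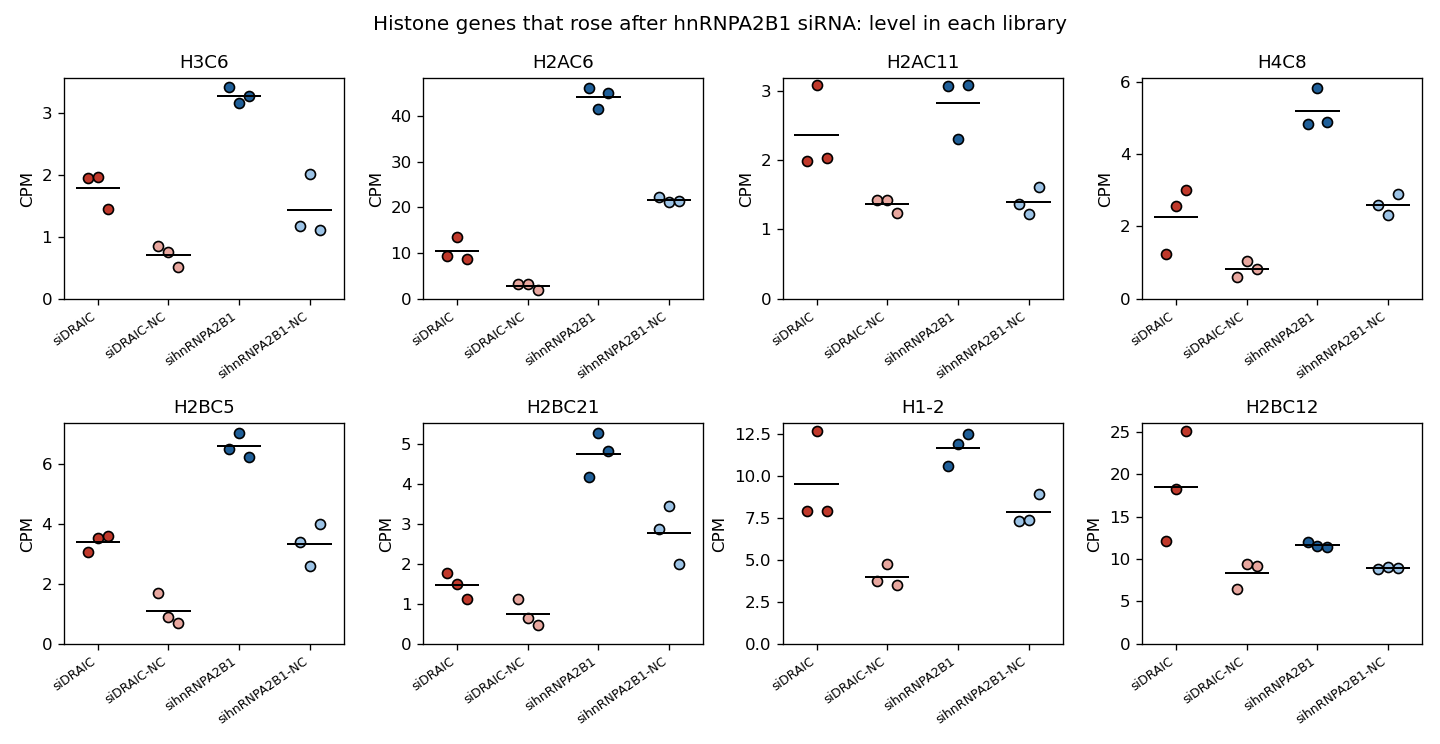
CPM in each library (points) and group mean (bar) for the 8 histone genes that rose in sihnRNPA2B1, each panel with its own axis from 0. In all 8 panels every siRNA library lies above every library of its own control, and for H2AC6 the sihnRNPA2B1-NC libraries (21.1 to 22.3 CPM) lie above the siDRAIC libraries (8.75 to 13.4 CPM).

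Some H2A and H2B genes face away from each other across one short region. H2BC4 and H2AC6 start 246 bases apart. H2AC6 rose in both experiments, while H2BC4 was at 1.23 in siDRAIC and 0.11 in sihnRNPA2B1 (log2 fold changes, neither called). H2BC11 and H2AC11 start 248 bases apart, and in sihnRNPA2B1 H2AC11 rose by 0.98 while H2BC11 was at -0.17. In siDRAIC H2BC11 was at 1.14 and H2AC11 at 0.79, neither called. H2BC8 and H2AC8, 233 bases apart, were at 0.32 and 0.09 in siDRAIC and 0.78 and -0.36 in sihnRNPA2B1, none called. H2BC21 and H2AC20, 236 bases apart, were at 0.98 and -0.36 in siDRAIC, neither called. In sihnRNPA2B1 H2BC21 rose by 0.74 and H2AC20 was not tested. The difference within a pair was not tested.

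Whether the 2 siRNA effects differed was tested in a single fit of all 12 libraries, as the siDRAIC change minus the sihnRNPA2B1 change. Of 23 tested members 0 were called, with a smallest adjusted p of 0.271 (edgeR), where 0.211% of 17091 genes were called. DESeq2 and limma-voom also called 0. At an unadjusted p below 0.05, 6 members were higher and 1 lower, a count given without the share over all genes and not read as a result. The median difference was 0.42, against -0.05 over all genes, and 16 of 23 were above 0, against 44.5% of all genes. H2AC6 had a difference of 0.90 (SE 0.28), called with the replicate block (adjusted p = 0.0303, edgeR) and without a low-count filter (adjusted p = 0.0478, edgeR). The block also used the replicate numbers of the hnRNPA2B1 experiment, whose same-numbered libraries did not deviate together.

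The control groups of the experiments also differed in their histone levels. In siDRAIC-NC over sihnRNPA2B1-NC, 10 of 23 tested members were lower and 0 higher (adjusted p below 0.05, edgeR), where 51.6% of 17091 genes were called in either direction and 25% of the 17091 were called lower. The 10 include H4C14, whose call is bound up with how members were chosen, as described below. The experiment and the control group cannot be told apart here, and these calls concern separate sets of libraries. The summed level was 29.1 CPM in siDRAIC-NC and 65.7 CPM in sihnRNPA2B1-NC, a ratio of 0.442, while siDRAIC stood at 0.974 of sihnRNPA2B1-NC.

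The lower genes were led by H2AC6 at a log2 fold change of -2.98 (SE 0.21, adjusted p = 3.42e-08, edgeR), with H2BC21 at -1.91, H2BC5 at -1.64, H2BC15 at -1.63 and H4C8 at -1.62. H2BC11 at -1.05, H3C6 at -1.02, H1-2 at -0.96 and H2BC4 at -0.89 were also lower. H4C14 was called too, but it had only 2, 4 and 4 counts in siDRAIC-NC, against 22, 16 and 24 in sihnRNPA2B1-NC, and reached the summed count of 60 through the hnRNPA2B1 experiment. Its lower level in siDRAIC-NC is therefore bound up with how members were chosen, and its fold is not read as a result. H2BC12 (-0.07), H2AC11 (-0.02) and H4C9 (-0.00) had log2 fold changes near 0. H2BC4 lost its call without most single libraries (9 of 12), H2BC11 without siDRAIC-NC replicate 3 or sihnRNPA2B1-NC replicate 1 (adjusted p = 0.103 and 0.0936, edgeR), and H3C6 without sihnRNPA2B1-NC replicate 2 (adjusted p = 0.0769, edgeR).

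Genes of S phase and DNA replication lay mostly below 0 with both siRNAs, while most tested histone genes lay above it. Of 35 listed genes (origin licensing, replication forks, nucleotide supply), 0 were called in siDRAIC, 32 were below 0 and the median log2 fold change was -0.22. With the replicate block 2 were called lower, where 3.58% of all genes were. In sihnRNPA2B1, 13 of 34 fell and 0 rose, where 15.4% of genes were called lower. Examples are UHRF1, which binds hemimethylated DNA, at -0.59 (adjusted p = 1.08e-07, edgeR), the helicase subunit MCM2 at -0.49 and the flap endonuclease FEN1 at -0.43. The sum of the list was 3791 ± 42.97 CPM in siDRAIC and 4259 ± 212 CPM in siDRAIC-NC, and 1157 ± 27.8 CPM in sihnRNPA2B1 and 1259 ± 19.0 CPM in sihnRNPA2B1-NC.

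Between the control groups the list and the histones stood in opposite order. All 35 S phase genes were higher in siDRAIC-NC than in sihnRNPA2B1-NC (median log2 fold change 1.81), where 26.6% of genes were called higher. The helicase subunits MCM4 (2.53) and MCM3 (2.36), the origin protein ORC1 (3.07) and GINS2 (3.50) had the smallest p. Of 26 factors of histone mRNA transcription and processing 7 were higher and 4 lower. Their median log2 fold change was -0.13, and 16 of the 26 were below 0. Among them SLBP, the stem-loop binding protein, was higher by 1.35 (adjusted p = 4.06e-07, edgeR). The cyclin gene CCNE1 (2.35) and CDK2 (1.73) were higher too, while CTIF, a translation factor, was lower (-3.53). Over all genes 26.6% were called higher and 25% lower. Of 16 chaperones 8 were higher and 1 lower, led by ASF1B (2.69), CHAF1B (2.00), CHAF1A (1.41) and TONSL (1.83). Of 12 histone variants 6 were higher and 4 lower, with H2AX at 2.10, H2AZ1 at 0.92, H1-10 at -1.72 and H3-3B at -0.64. The part of cell cycle state, RNA selection or batch in these differences was not tested.

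**Figure D4:**
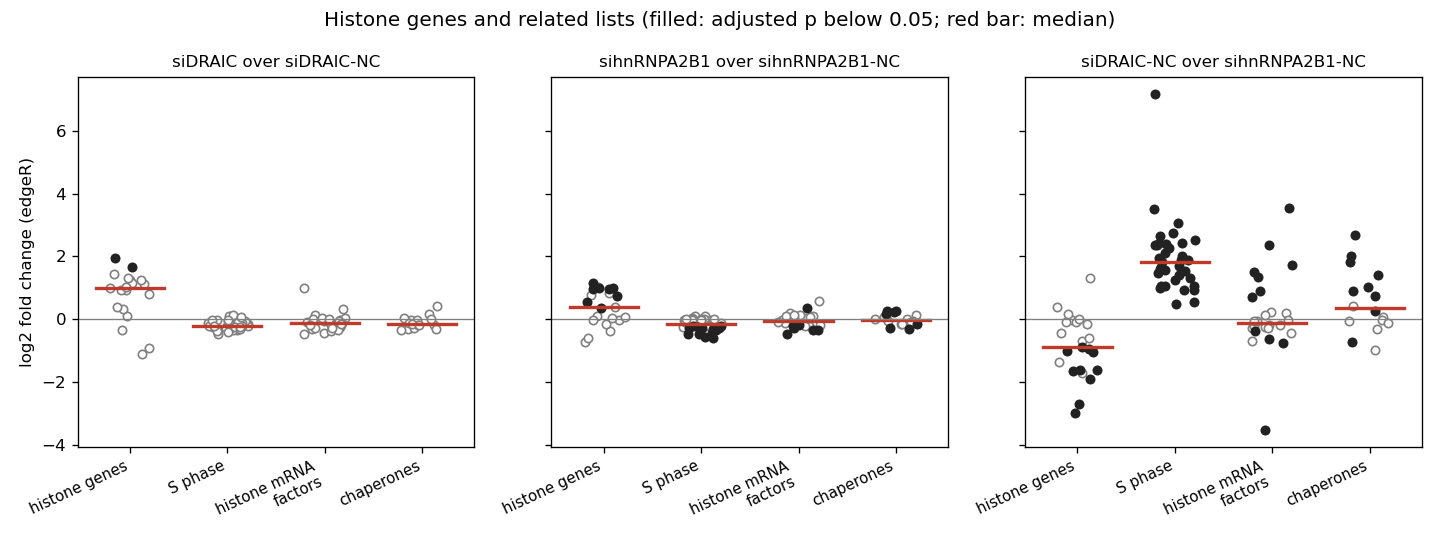
Log2 fold change of each tested gene (points; filled where the adjusted p was below 0.05) with the list median (red bar) for histone genes, S phase genes, factors of histone mRNA transcription and processing, and histone chaperones, in 3 comparisons. Histone medians are 0.98, 0.40 and -0.89 and S phase medians are -0.22, -0.17 and 1.81 from left to right. The highest point at the right, E2F2 at 7.17, rests on 0.0169 CPM in sihnRNPA2B1-NC and is no bound.

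The factors that make histone messenger RNA were examined next. SLBP averaged 121 ± 10.7 CPM in siDRAIC and 140 ± 13.2 CPM in siDRAIC-NC, and 55.0 ± 2.54 CPM in sihnRNPA2B1 and 55.3 ± 2.76 CPM in sihnRNPA2B1-NC, with log2 fold changes of -0.24 and -0.04 (adjusted p = 0.659 and 0.692, edgeR). NPAT, the coactivator of histone gene transcription, was at -0.36 and 0.20 (adjusted p = 0.805 and 0.222, edgeR). Of 26 listed factors 0 were called in siDRAIC, and with the replicate block 1 was higher and 2 lower, where 5.2% of all genes were called higher and 3.58% lower. In sihnRNPA2B1, 1 rose and 6 fell, where 15.1% of all genes were called higher and 15.4% lower. TUT7, a uridylyl transferase, rose by 0.36 (adjusted p = 0.0108, edgeR). The cleavage factor CSTF2 fell by 0.48, the decay helicase UPF1 by 0.29, the kinase CDK2 by 0.36 and the 3′ exonuclease ERI1 by 0.33.

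Histone variants listed as replication-independent, whose supply is not confined to S phase, were counted in the same way. In siDRAIC 0 of 10 tested were called (edgeR; 0 also at an unadjusted p below 0.05). In sihnRNPA2B1, 1 of 12 rose and 4 fell, where 15.1% of all genes were called higher and 15.4% lower. MACROH2A2 rose by 0.80 (adjusted p = 0.000136, edgeR), averaging 7.59 ± 1.30 CPM in sihnRNPA2B1 and 4.24 ± 0.555 CPM in sihnRNPA2B1-NC. H2AZ1 (-0.23), H3-3B (-0.18), H2AZ2 (-0.19) and H2AX (-0.20) fell. H3-3B was the most abundant variant, at 922 ± 47.0 CPM in sihnRNPA2B1 and 1019 ± 30.8 CPM in sihnRNPA2B1-NC, followed over all libraries by MACROH2A1 and H2AZ1. Of 16 tested histone chaperones 0 were called in siDRAIC. In sihnRNPA2B1 4 rose (RBBP4, NAP1L1, HAT1 and ASF1A, by 0.17 to 0.27) and 3 fell (ASF1B, SSRP1 and CHAF1B, by 0.14 to 0.32), in the same comparison with 15.1% of all genes called higher and 15.4% lower.

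The kidney list was led by CDH6, a cadherin gene, which rose in both experiments, by 0.88 in siDRAIC (adjusted p = 0.0381, edgeR) and by 1.92 in sihnRNPA2B1 (adjusted p = 1.22e-14, edgeR). Markers of other cell types were mostly at the floor. The summed level of 5 blood and immune markers was at most 1.25 CPM and that of 5 endothelial markers at most 0.876 CPM in any library. Of 5 fibroblast markers, the collagen gene COL1A1 rose in siDRAIC, to 9.88 ± 3.10 CPM, against 2.63 ± 1.66 CPM in siDRAIC-NC (log2 fold change 1.91, adjusted p = 0.0462, edgeR). PDGFRB, a growth factor receptor gene, averaged 4.24 ± 2.21 CPM in siDRAIC and 1.28 ± 0.655 CPM in siDRAIC-NC (log2 fold change 1.74, adjusted p = 0.154, edgeR), and both COL1A1 and PDGFRB were called with the replicate block. The other 3 listed genes, COL1A2, DCN and FAP, were at 0 to 0.0741 CPM as group means. The summed level of the fibroblast list was 10.5 to 18.2 CPM in siDRAIC and 2.58 to 6.59 CPM in siDRAIC-NC, and its part in the histone result was not tested.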

How the data were processed

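Raw read counts per Ensembl gene were deposited by the authors, 1 table for each siRNA experiment, with 60617 gene IDs in each. Per the submitters' processing notes, reads were handled with fastp 0.23.2, STAR 2.7.10a, StringTie and DESeq2 on hg38. The sources used here do not give the counting program, its annotation or its use of strand. Symbols were found for 60261 IDs, and 58542 were in GENCODE 29.

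The main test was edgeR 4.0.16 (R 4.3.3), run on the 6 libraries of 1 experiment at a time: filterByExpr (minimum count 10), TMM scaling and the robust two-sided quasi-likelihood test, with Benjamini-Hochberg adjustment over all tested genes and a threshold of 0.05. Standard errors are approximate, from the log2 fold change and the F statistic. The difference of effects and the control groups were fitted over all 12 libraries. The step was tested on simulated data. Alternatives were RLE factors, DESeq2 1.42.0, limma-voom (limma 3.58.1), other filters, a replicate block, 1 fit of 12 libraries and each library left out. The groups share replicate numbers, but the labels state no pairing. The correlation of deviations from group means was 0.489, 0.227 and 0.277 for same-numbered libraries of the DRAIC experiment. Any pairing there is thus read from these same counts, and the block was an alternative and not part of the main test.

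The members and gene lists were chosen with earlier results of these data known. Named are all members, described by class, with every called member and the 3 of highest mean CPM per class in full, and up to 4 called genes with the smallest p per list; others were chosen after their values were seen. One gene that this rule names is not reported here. Sequences are from GENCODE 29 transcripts and RefSeq promoters (GRCh38.p14). The CPM level of 3 counts covers counting error only, while SDs and standard errors also take in the spread between libraries.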

Additional observations from a re-analysis of the deposited data

How the results depend on the processing

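The members called higher in siDRAIC numbered 2. They numbered 1 with RLE factors, with limma-voom and with a filter of 1 CPM in 3 libraries, 5 with DESeq2 and without a low-count filter, 7 with all 12 libraries in 1 fit, and 9 with the replicate block. Leaving out 1 library gave 0 to 3, with 0 without siDRAIC replicate 2 or 3 or siDRAIC-NC replicate 2 or 3. The cause was not tested. In sihnRNPA2B1 the 8 called higher became 2 with all 12 libraries in 1 fit, stayed at 8 in number with the replicate block and were 7 to 9 with 1 library left out. The 0 called lower became 1 without a low-count filter and 0 to 1 with 1 library left out. The counts with 1 library left out include H4C5 as higher and H2AC20 as lower, each past the filter only through the group where it was high. For the difference of effects, 1 member was called higher without a low-count filter and 1 with the replicate block, against 0. The 10 members lower in the siDRAIC-NC controls were 8 to 10 under every alternative, 9 of them with the replicate block. Those 10 include H4C14, whose fold is not read as a result. The block in this comparison matched replicate numbers across the experiments, which nothing shows to be paired.

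Same-numbered libraries of the hnRNPA2B1 experiment had correlations of -0.0117, -0.0242 and -0.0456, so their numbers pair nothing. Without its most abundant member, the log2 ratio of the summed level in siDRAIC was -0.89 for H1, 0.44 for H2A and -1.40 for H3, against 1.10, 1.42 and 0.82 with it. In sihnRNPA2B1 it was 0.51 for the family, 0.78 for H1, 0.47 for H2A, -0.58 for H3 and 0.24 for H4, against 0.70, 0.58, 0.98, 0.91 and 0.59. TMM library sizes moved no sum beyond the spread.

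Low counts left 7 of 26 members untested in siDRAIC and 5 in sihnRNPA2B1, and shared sequence and unstated strand use limit their levels.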
